A study of Mus musculus with 12 samples.

Results

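Genes of mitosis and cell division were followed in the spleens of C57BL/6 mice on 12 Affymetrix arrays. The set was a list of 35 genes that act between entry into mitosis and the separation of the daughter cells. A gene was measured where a probe set was annotated with its symbol alone, and where several were, the one with the highest mean over the 12 arrays stood for the gene. This gave values for 34 of the 35 genes, among 19938 genes on the arrays. Ccnb1, which encodes cyclin B1, had no probe set with a single symbol and has no value here. Cks2 had 3 such probe sets and Top2a had 2.

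The arrays fall by their labels into 3 groups of 4 biological replicates, all spleen. Arrays M5 to M8 are labelled septic TLR-deficient, M9 to M12 septic wildtype and M13 to M16 untreated wildtype, where M and a number is the running number in the title. Septic mice had undergone colon ascendens stent peritonitis (CASP), a model of sepsis in which gut content leaks into the abdomen through a tube set in the colon. TLR-deficient stands for a lack of Toll-like receptor signalling, and the titles of these samples read Trifxmyd, after the adaptors Trif (gene Ticam1) and MyD88. The alleles, the ages and the time from surgery to sampling of the septic mice are not stated in the labels, and the study has no untreated TLR-deficient group. A difference between the septic TLR-deficient arrays and either wildtype group can therefore not be assigned to genotype or to sepsis separately from this design.

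Division starts when cyclin A and cyclin B switch on the kinase Cdk1, after which condensin packs the chromosomes and kinesin motors build a bipolar spindle. The spindle checkpoint holds back the anaphase-promoting complex until every kinetochore is attached, and cytokinesis then divides the cell. Transcripts of these proteins are made mainly late in the cell cycle and fall after division, so they are commonly read as markers of cycling cells. In mouse spleen such cells include erythroid and granulocyte precursors of the red pulp and dividing B cells. RNA of whole spleen was measured, so a larger share of cycling cells and more of these RNAs per cycling cell cannot be told apart.

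All values are on a log2 scale, with array medians between 5.22 and 5.54, and the number of arrays limits their precision. Septic wildtype replicate 2 (M10) stood apart: across genes it correlated with the other arrays at r = 0.765 to 0.809, against 0.956 to 0.991 among the other 11, and its log2 values had an SD of 1.52 against 2.11 to 2.24. Arrays were also alike across labels. The cytokine transcripts Il6 and Cxcl2 lay at 6.34 to 9.22 and 9.68 to 10.6 on M5, M6, M7 and M16, and at no more than 4.31 and 6.50 on the other arrays. Xist was low (3.73 to 4.33) and the Y-linked Eif2s3y high (7.21 to 7.95) on M12 to M15, the reverse of the other arrays. By these genes M12 to M15 read as male and the other arrays as female. Among the untreated arrays only M16 read as female, as did all of M5 to M8. Between septic TLR-deficient and untreated wildtype, label and sex therefore largely coincided and cannot be told apart. M8, M12 and M16 thus resembled arrays of another label, and each group name below stands for the label and not for an established condition. Myd88 lay at 8.62 to 9.64 on M5 to M8, 6.48 to 9.20 on M9 to M12 and 8.87 to 9.75 on M13 to M16, and Ticam1 at 5.80 to 5.93, 5.64 to 6.22 and 5.76 to 6.57. Myd88 was not set apart on the arrays labelled TLR-deficient. Ticam1 lay lower on them than on M9 and M11 to M15 (6.04 to 6.57), but M10 (5.64) and M16 (5.76) were lower still. The position of any deleted part is not stated. The B cell gene Cd79a (7.78 to 11.1) and the T cell gene Cd3e (6.37 to 9.33) were measured on every array of spleen RNA.

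The mitosis genes were higher in mean on the septic TLR-deficient arrays than on both wildtype groups, while the wildtype groups lay close together. Against septic wildtype, all 34 had a higher mean, as did 43.9% of all genes, although after a further quantile normalization 4 of them (Aurka, Plk1, Cdc20 and Ube2c) had a lower one. The median difference of the 34 was 0.66 on the log2 scale, with single genes between 0.13 (Cdc20) and 1.05 (Bub1), and the median over all genes was -0.06. After a further quantile normalization these medians were 0.47 and -0.02. Among the 9969 genes with a mean above percentile 50 the background ran the same way as the members. There 7372 genes were higher, with a median of 0.23, and 30 of 30 members were higher. Against untreated wildtype, again all 34 had a higher mean under each scaling tried, as did 51.9% of all genes. There the median of the 34 was 0.63 and that of all genes 0.01. Among the genes above percentile 50, 3490 of 9969 were higher, with a median of -0.09. These 2 comparisons share the septic TLR-deficient arrays, so they are given side by side and are not independent of each other.

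No single gene passed the test. With limma's adjusted p at a threshold of 0.05, 0 of 34 members and 0% of all genes were called in the comparison with septic wildtype, and the lowest adjusted p was 0.59. At an unadjusted p below 0.05, 21 members were higher against 4.42% of all genes, and 0 were lower against 2.22%. The 21 became 12 after a further quantile normalization (6.46% of all genes in either direction) and 30 with array weights (12.5%). In 9 members every septic TLR-deficient array lay above every septic wildtype array, which held for 2.05% of all genes: Ccna2, Bub1, Aurkb, Kif11, Kif20a, Prc1, Spag5, Ncapg and Ect2. Against untreated wildtype 0 of 34 members and 0% of all genes were called (lowest limma adjusted p = 1). At an unadjusted p below 0.05, 19 members were higher against 1.17% of all genes, and 12 after a further quantile normalization (1.87% in either direction). The arrays did not overlap in 13 members, against 2.4% of all genes: Ccna2, Ccnb2, Cenpe, Birc5, Kif11, Prc1, Spag5, Ncapg, Mki67, Cdc20, Ube2c, Ect2 and Anln.

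**Figure D1:**
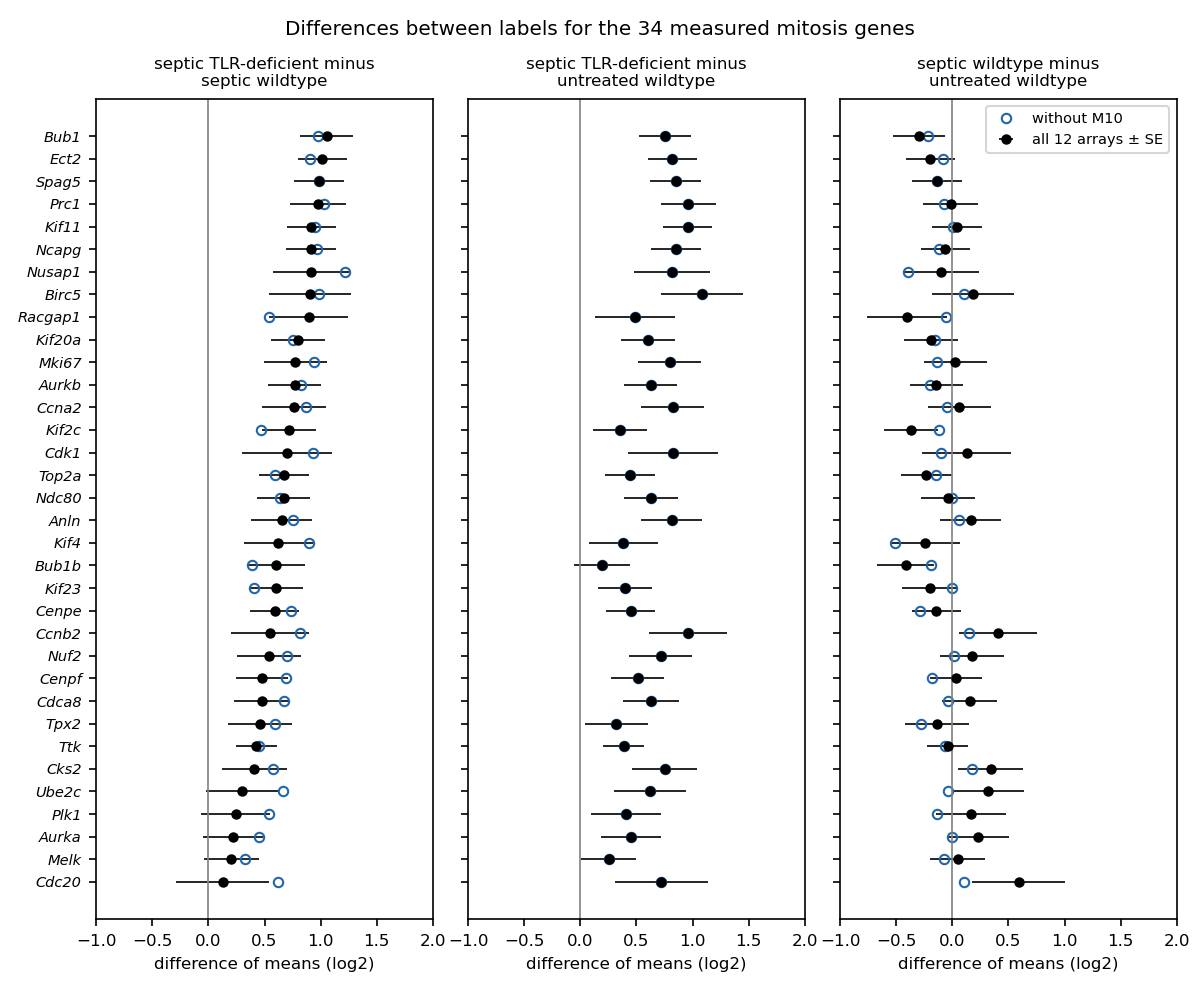
Differences of group means on the log2 scale for the 34 measured genes, in 3 comparisons; black points with bars give the difference and its standard error over all 12 arrays, open circles the difference without M10 (not a part of the middle comparison). All black points of the first and second comparison lie right of 0 (medians 0.66 and 0.63; after a further quantile normalization Aurka, Plk1, Cdc20 and Ube2c fall left of 0 in the first), and those of the third lie on both sides (median -0.03).

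Single arrays moved these counts. Replicate 3 of the septic TLR-deficient group (M7) was the highest array: all 34 members lay above their own 12-array mean there, with a median of 0.97 above it. Without M10, M7 was the highest of the other 11 arrays in 28 of 34 members, against 14.8% of all genes. The exceptions were Plk1, Melk, Bub1b, Nuf2, Kif2c and Kif20a. Septic wildtype replicate 1 (M9) was the lowest of those 11 arrays in 16 members, against 5.75% of all genes. Without M7 the median difference from septic wildtype was 0.49, 12 members had an unadjusted p below 0.05 and were higher (2.3% of all genes), and 9 did not overlap (2.79%). Without M7 the comparison with untreated wildtype had a median of 0.46, with 9 members at an unadjusted p below 0.05 (0.451% of all genes) and 13 not overlapping (3.02%); without M13 that count of 19 became 12, against 1.57% of all genes in either direction.

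**Figure D2:**
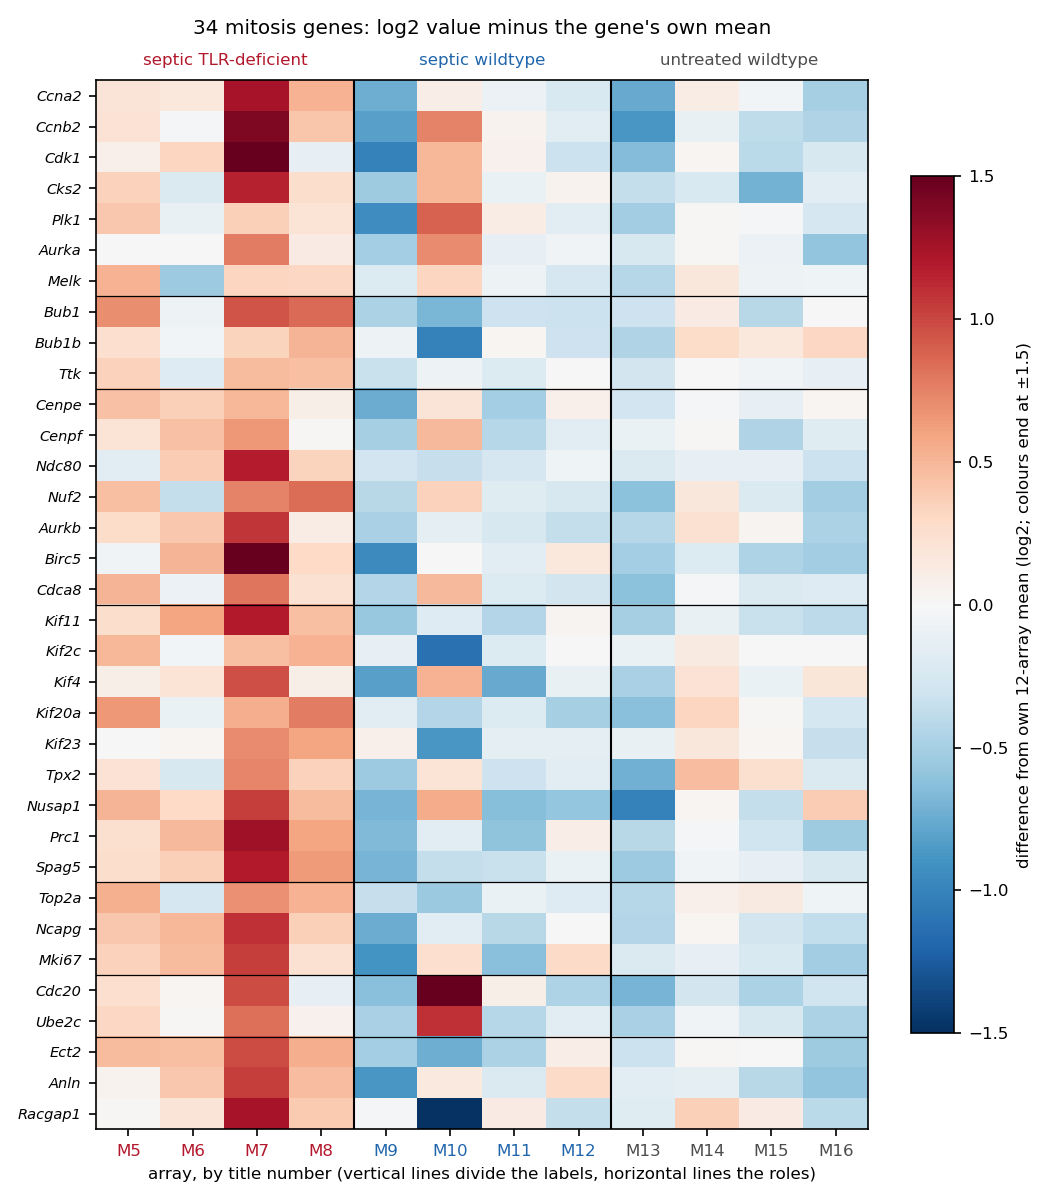
Heat map of the 34 genes (rows, ordered by role) on the 12 arrays (columns, by title number); colour gives the log2 value minus the gene's own mean over the 12 arrays. M7 is red in all 34 rows (median 0.97) and M13 blue in all 34 (median -0.43), while M10 holds both the strongest red (Cdc20, 1.62) and a strong blue (Racgap1, -1.49) of the wildtype arrays.

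Leaving out M10 raised the counts in the comparison with septic wildtype. The median was then 0.72, 0 of 34 members and 0% of all genes had a limma adjusted p below 0.05 (lowest 0.741), 27 members had an unadjusted p below 0.05 and were higher (3.38%), and 16 did not overlap (3.26%). A further fit, chosen after seeing the data, kept replicates 1 to 3 of each group and so left out M8, M12 and M16. In it 0 of 34 members were called against 0.707% of all genes, with a lowest limma adjusted p of 0.0511 among the members. There 14 members had an unadjusted p below 0.05 and were higher (6.6% of all genes), and 13 did not overlap (8.02%). With M10 left out as well, 9 of 34 members were called, against 5.03% of all genes: Cenpe, Cenpf, Kif11, Kif4, Nusap1, Prc1, Ncapg, Mki67 and Ect2. In that fit 23 members had an unadjusted p below 0.05 and were higher (7.25%) and 24 did not overlap (12.4%), but septic wildtype was then represented by M9 and M11 alone. Against untreated wildtype the same fits called 0 members (0.166% of all genes; 18 not overlapping, 9.86%) and, without M10, the 3 members Cenpe, Kif11 and Mki67 (3.39%).

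M5 to M8 together lay above all 7 wildtype arrays other than M10 in 8 members, against 0.502% of all genes: Ccna2, Cenpe, Kif11, Prc1, Spag5, Ncapg, Ube2c and Ect2. These span entry into mitosis, kinetochore, spindle, chromosome condensation, anaphase and cytokinesis.

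Mitosis genes are known to share promoter letters. The cell cycle genes homology region (CHR), with the letters TTTGAA, is a binding sequence of the MuvB protein complex, and the CCAAT box is bound by NF-Y. Promoter windows of 300 bases, from 250 before to 50 after a transcription start, were taken from RefSeq on GRCm38.p6. They were found for 31 of the 35 genes, in 33 windows, with 2 each for Ect2 and Prc1. Aurkb, Ccna2, Kif20a and Tpx2 had no entry. TTTGAA on either strand was present in 23 of 31 genes, and in 17.9% of all 32851 windows of the table. CCAAT on either strand was present in 24 of 31 genes and in 37.4% of all windows. Both were present in 20 genes and in 6.95% of windows, and 16 genes had at least 2 CCAAT boxes, as did 11.7% of windows. The CHR variant TTCGAA was found in 3 genes and in 1.56% of windows. None of these letters was found in the windows of Birc5, Melk, Nuf2 and Nusap1. These matches are descriptions of sequence and were not tested as binding sites.

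Stretches of 150 bases, from 120 before to 30 after the start, are given for 7 genes that show the arrangements seen: repeated boxes, a CHR without a nearby CCAAT box, and neither. They are written from the 5′ end on the gene's strand, and capitals mark TTTGAA and CCAAT or their reverse complements TTCAAA and ATTGG.
Ccnb2, chr9:70421525-70421674, minus strand: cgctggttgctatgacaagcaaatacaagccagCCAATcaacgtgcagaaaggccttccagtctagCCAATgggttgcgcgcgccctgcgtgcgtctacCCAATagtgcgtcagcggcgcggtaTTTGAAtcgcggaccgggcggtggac
Cdk1, chr10:69352883-69353032, minus strand: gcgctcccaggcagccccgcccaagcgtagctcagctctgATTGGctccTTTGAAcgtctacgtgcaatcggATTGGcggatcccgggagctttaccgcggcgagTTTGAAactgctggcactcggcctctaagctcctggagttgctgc
Cdc20, chr4:118437314-118437463, minus strand: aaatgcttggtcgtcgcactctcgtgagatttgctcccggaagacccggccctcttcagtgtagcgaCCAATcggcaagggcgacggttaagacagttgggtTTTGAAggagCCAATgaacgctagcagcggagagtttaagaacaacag
Prc1, chr7:80294356-80294505, plus strand: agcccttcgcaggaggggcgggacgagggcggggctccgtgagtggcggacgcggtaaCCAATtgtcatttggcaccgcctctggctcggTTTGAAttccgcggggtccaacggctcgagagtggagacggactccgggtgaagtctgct
Ncapg, chr5:45669805-45669954, plus strand: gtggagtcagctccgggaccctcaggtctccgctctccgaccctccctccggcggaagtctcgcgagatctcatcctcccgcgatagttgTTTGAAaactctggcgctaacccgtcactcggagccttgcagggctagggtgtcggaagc
Top2a, chr11:99024160-99024309, minus strand: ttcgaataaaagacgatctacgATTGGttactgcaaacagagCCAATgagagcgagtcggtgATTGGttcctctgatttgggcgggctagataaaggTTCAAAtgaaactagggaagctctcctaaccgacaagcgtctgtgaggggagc
Nusap1, chr2:119618178-119618327, plus strand: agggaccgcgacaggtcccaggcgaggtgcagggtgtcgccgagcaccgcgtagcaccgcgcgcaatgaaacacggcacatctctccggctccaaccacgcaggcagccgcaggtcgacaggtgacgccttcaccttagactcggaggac

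In Ccnb2 the 3 CCAAT boxes began at -87, -54 and -21 relative to the start, 33 bases apart, with a CHR at 4. Cdk1 had CCAAT boxes at -80 and -48 and CHRs at -71 and -15, the last step being 33 bases. The spacing from CCAAT box to CHR was 32 bases in Prc1 and 35 bases in Cdc20 and Top2a. Ncapg had a CHR at -30, and its nearest CCAAT box lay outside the stretch. Over all windows of the members, 8 of 34 neighbouring CCAAT boxes (in 7 genes) and 6 of 25 steps from the last CCAAT box to a CHR (in 5 genes) measured 30 to 36 bases. Spacing was not measured in the windows of other genes, so these counts have no background and cannot be read as particular to the members. The 2 windows of Prc1 and those of Ect2 overlap, so sites in them were counted again. Values by array are given below for Ccnb2, Cdk1, Cdc20, Prc1, Ncapg and Top2a. Nusap1, without a match, differed from septic wildtype by 0.91 (SE 0.34). The other genes without one, Birc5, Nuf2 and Melk, differed by 0.90, 0.54 and 0.20. A link between matches and differences was not tested.

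**Figure D3:**
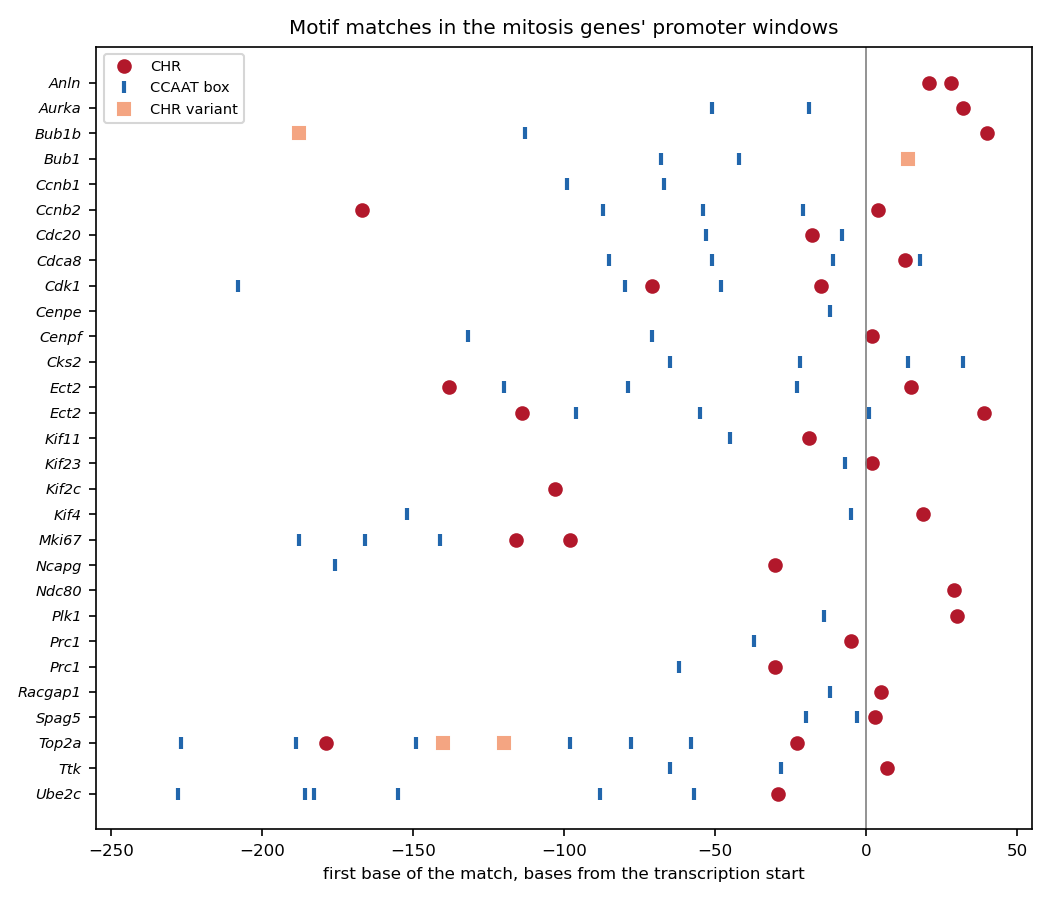
First base of each motif match relative to the transcription start (bases; negative is before the start) in the 29 of 33 promoter windows of the mitosis genes that held a match; red circles are the CHR, orange squares its variant and blue ticks CCAAT boxes. Of 96 matches 77 lie from 120 bases before the start onward, and Birc5, Melk, Nuf2 and Nusap1 are not drawn because no match was found.

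The genes of entry into mitosis were 7 measured cyclins, kinases and a kinase subunit, with a median difference of 0.41 from septic wildtype and 0.75 from untreated wildtype. The first was 0.19 without M7, and 0.15 with 5 of 7 genes higher after a further quantile normalization. Values below are given in order of title number. Ccna2, cyclin A2, was at 8.10, 8.07, 9.14 and 8.43 on M5 to M8, 7.18, 8.01, 7.82 and 7.68 on M9 to M12, and 7.15, 8.02, 7.87 and 7.41 on M13 to M16. Every septic TLR-deficient array lay above every wildtype array of either group. Its mean was 8.43 ± 0.50 (SD, n = 4) against 7.67 ± 0.36 in septic wildtype, a difference of 0.76 (SE 0.28) or 1.69-fold, with a limma adjusted p of 0.59. Unless another value is given, each difference from septic wildtype below has this adjusted p, and each from untreated wildtype an adjusted p of 1. Cdk1, the kinase that drives mitosis, was at 6.98, 7.22, 8.66 and 6.78 on M5 to M8, 5.89, 7.40, 6.97 and 6.58 on M9 to M12, and 6.25, 6.93, 6.49 and 6.66 on M13 to M16. M7 stood far above the rest and M9 lowest, and the groups overlapped. Its difference from septic wildtype was 0.70 (SE 0.40), 0.28 without M7 and 0.43 without M9. Ccnb2, cyclin B2, was at 7.97, 7.73, 9.15 and 8.17 on M5 to M8, 6.93, 8.49, 7.80 and 7.58 on M9 to M12, and 6.87, 7.64, 7.37 and 7.30 on M13 to M16. All septic TLR-deficient arrays lay above the untreated ones, but M10 and M11 reached into their range. The difference was 0.55 (SE 0.35) from septic wildtype, and 0.25 without M7, 0.29 without M9 and 0.81 without M10. From untreated wildtype it was 0.96 (SE 0.35).

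With the probe sets used, the other kinases and the kinase subunit of this role had smaller differences from septic wildtype. Cks2, a small subunit that binds Cdk1, differed by 0.41 (SE 0.29), and by 0.15 without M7. Its 2 other probe sets were dimmer (means 5.88 and 5.55) and had larger differences. On M10 they were at 5.89 and 4.53, against 6.79 for the one used. The dimmest was at 6.18, 5.48, 6.99 and 6.15 on M5 to M8, and 4.88, 4.53, 5.30 and 5.71 on M9 to M12. Plk1, polo-like kinase 1, differed by 0.24 (SE 0.31) with an adjusted p of 0.688, and Aurka, a kinase of the spindle poles, by 0.22 (SE 0.27) with an adjusted p of 0.679. Both were high on M10 (7.55 and 7.42), and without it their differences were 0.54 and 0.45. Without M7 the difference of Aurka was 0.03, and without M9 Plk1 had a lower mean than septic wildtype. Melk, a kinase of cycling cells, differed by 0.20 (SE 0.24) with an adjusted p of 0.666, and was lower on M6 (5.14) than on any other array.

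All 3 checkpoint genes were higher in mean on the septic TLR-deficient arrays, with a median difference of 0.61 from septic and 0.38 from untreated wildtype. Bub1, a kinase that recruits checkpoint proteins to kinetochores, was at 6.72, 5.94, 6.97 and 6.87 on M5 to M8, 5.54, 5.33, 5.71 and 5.70 on M9 to M12, and 5.71, 6.14, 5.61 and 6.02 on M13 to M16. M5, M7 and M8 were about a log2 unit above the septic wildtype arrays, and M6 lay just above them. The means were 6.62 ± 0.46 and 5.57 ± 0.18 (SD, n = 4), and the difference of 1.05 (SE 0.23), 2.08-fold, was the largest of the 34 with the probe sets used. M14 and M16 lay above M6, so the groups overlapped against untreated wildtype, with a difference of 0.76 (SE 0.23). Bub1b, which encodes BubR1 of the complex that holds Cdc20, was at 7.03, 6.73, 7.10 and 7.29 on M5 to M8, 6.70, 5.76, 6.80 and 6.46 on M9 to M12, and 6.32, 7.05, 6.92 and 7.08 on M13 to M16. Its M10 value was the lowest of the 12. The difference from septic wildtype of 0.61 (SE 0.25) became 0.38 without M10, and that from untreated wildtype was 0.19 (SE 0.25), between 0.02 (without M13) and 0.29 (without M6) with single arrays left out. Ttk, the kinase Mps1 that starts checkpoint signalling, differed by 0.43 (SE 0.18) and 0.38 (SE 0.18) from septic and untreated wildtype.

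Kinetochore and chromosomal passenger genes had a median difference of 0.59 from septic wildtype and 0.63 from untreated wildtype, with 7 of 7 higher in mean. Birc5, survivin of the passenger complex, was at 6.23, 6.78, 8.18 and 6.57 on M5 to M8, 5.32, 6.29, 6.10 and 6.44 on M9 to M12, and 5.77, 6.08, 5.81 and 5.76 on M13 to M16. M7 exceeded the next array by more than a log2 unit, and M12 was the highest of the wildtype arrays. The difference from septic wildtype of 0.90 (SE 0.37) was 0.49 without M7. From untreated wildtype Birc5 differed by 1.09 (SE 0.37), 2.12-fold, and by 0.67 without M7. Aurkb, the kinase of the same complex, was at 7.72, 7.84, 8.52 and 7.55 on M5 to M8, 6.96, 7.31, 7.20 and 7.09 on M9 to M12, and 7.02, 7.67, 7.48 and 6.96 on M13 to M16. The septic TLR-deficient arrays all lay above the septic wildtype ones, whereas the untreated M14, at 7.67, lay above M8. Its difference was 0.77 (SE 0.24) from septic and 0.63 (SE 0.24) from untreated wildtype. Ndc80, a subunit of the microtubule-binding kinetochore complex, was at 5.68, 6.23, 7.02 and 6.17 on M5 to M8, 5.55, 5.50, 5.59 and 5.77 on M9 to M12, and 5.63, 5.72, 5.72 and 5.51 on M13 to M16. M7 was high, M5 lay among the wildtype arrays, and those 8 wildtype arrays spanned only 5.50 to 5.77. The difference was 0.67 (SE 0.24) from septic wildtype, and 0.42 without M7.

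Nuf2, the partner of Ndc80, differed by 0.54 (SE 0.28) from septic wildtype, and Cdca8, borealin of the passenger complex, by 0.47 (SE 0.25). Cenpe, a kinesin of the kinetochore, differed by 0.59 (SE 0.22), and Cenpf, a large kinetochore protein, by 0.48 (SE 0.24). Without M10 these 4 differences were 0.70, 0.67, 0.74 and 0.69. Each was larger without that array.

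The 9 spindle genes were all higher in mean, with a median difference of 0.80 from septic wildtype and 7 of 9 higher at an unadjusted p below 0.05, as were 4.42% of all genes. Kif11, the kinesin that pushes the spindle poles apart, was at 7.13, 7.46, 8.06 and 7.32 on M5 to M8, 6.30, 6.67, 6.43 and 6.91 on M9 to M12, and 6.38, 6.76, 6.53 and 6.48 on M13 to M16. The lowest septic TLR-deficient value exceeded the highest of all wildtype arrays, M12. The means were 7.49 ± 0.40, 6.58 ± 0.27 and 6.54 ± 0.16 (SD, n = 4), and the differences 0.92 (SE 0.22) from septic and 0.96 (SE 0.22) from untreated wildtype. Prc1, which bundles microtubules of the spindle midzone, was at 6.78, 7.03, 7.81 and 7.13 on M5 to M8, 5.89, 6.38, 5.94 and 6.64 on M9 to M12, and 6.13, 6.52, 6.25 and 6.01 on M13 to M16. It followed Kif11 closely over the arrays (r = 0.986, n = 12) and its septic TLR-deficient arrays too lay above M12, the highest wildtype array. Its difference from septic wildtype was 0.98 (SE 0.25) and that from untreated wildtype 0.96 (SE 0.25). Spag5, astrin of the spindle and kinetochores, was at 6.22, 6.31, 7.14 and 6.59 on M5 to M8, 5.25, 5.60, 5.62 and 5.86 on M9 to M12, and 5.41, 5.91, 5.84 and 5.72 on M13 to M16. All 4 septic TLR-deficient arrays lay above all 8 wildtype arrays here too. The difference was 0.98 (SE 0.23) from septic and 0.85 (SE 0.23) from untreated wildtype.

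Among the other spindle genes, Nusap1, a microtubule-binding protein, was high on M10 and M16 as well, so that the groups overlapped. Its difference from septic wildtype was 0.91 (SE 0.34), and 1.21 without M10. Kif20a, a kinesin of the central spindle, differed by 0.80 (SE 0.24) and did not overlap with septic wildtype. Kif2c, which takes microtubules apart, differed by 0.72 (SE 0.24) and Kif23, a subunit of centralspindlin, by 0.60 (SE 0.24). Both were lowest on M10, and their differences without it were 0.46 and 0.40. Kif4, a kinesin on chromosome arms, differed by 0.62 (SE 0.31), with 0.90 without M10 and 0.41 without M7. Tpx2, which activates Aurora A on the spindle, differed by 0.46 (SE 0.28), and by 0.30 without M7.

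**Figure D4:**
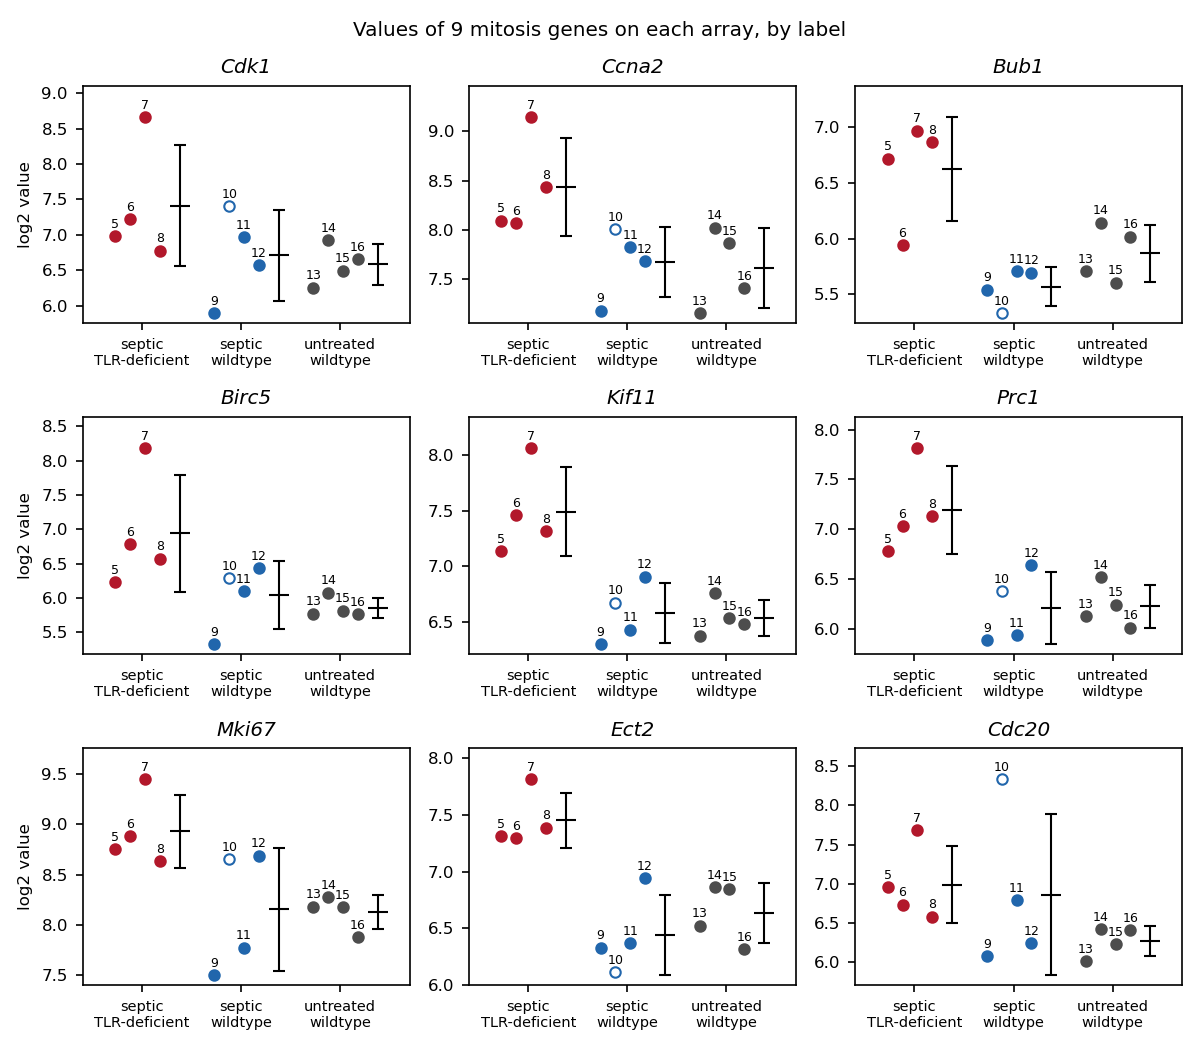
Log2 values of 9 mitosis genes on each array, by label; points carry the title number, M10 is open, and bars give the mean and SD of 4 arrays. In Ccna2, Kif11, Prc1 and Ect2 all septic TLR-deficient points lie above the points of both other labels, whereas in Cdc20 M10 is the highest point at 8.33.

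Chromosome structure was represented by 3 genes, with a median difference of 0.77 from septic wildtype and 0.80 from untreated wildtype. Mki67, whose protein Ki-67 coats mitotic chromosomes and is the usual stain for cycling cells, was at 8.75, 8.88, 9.44 and 8.64 on M5 to M8, 7.50, 8.65, 7.78 and 8.69 on M9 to M12, and 8.18, 8.28, 8.18 and 7.88 on M13 to M16. All septic TLR-deficient arrays lay above the untreated ones, but M10 and M12 were level with M8. The means were 8.93 ± 0.36, 8.15 ± 0.61 and 8.13 ± 0.17 (SD, n = 4). Septic wildtype ran from M9 and M11 below every untreated array to M10 and M12 above them. The difference from septic wildtype was 0.77 (SE 0.28), and from untreated wildtype 0.80 (SE 0.28), 1.74-fold. Ncapg, a condensin I subunit, was at 7.07, 7.16, 7.76 and 7.02 on M5 to M8, 5.93, 6.50, 6.25 and 6.67 on M9 to M12, and 6.23, 6.69, 6.39 and 6.30 on M13 to M16. The septic TLR-deficient arrays were separate from both wildtype groups. The differences were 0.91 (SE 0.22) and 0.85 (SE 0.22). Top2a, the topoisomerase that untangles sister chromatids, was at 8.33, 7.55, 8.49 and 8.32 on M5 to M8, 7.45, 7.24, 7.70 and 7.60 on M9 to M12, and 7.37, 7.88, 7.93 and 7.74 on M13 to M16. M6 lay below M11 and M12 and the other 3 septic TLR-deficient arrays above them. Its differences were 0.68 (SE 0.23) and 0.44 (SE 0.23). A second probe set of Top2a was much dimmer, with a mean of 2.16, and was not used.

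The partners of the anaphase-promoting complex had a median difference of 0.21 from septic wildtype, 0.64 without M10, 0.0098 without M7 and -0.10 after a further quantile normalization, and both were highest on M10. Cdc20, the activator that the checkpoint restrains, was at 6.96, 6.73, 7.69 and 6.58 on M5 to M8, 6.08, 8.33, 6.80 and 6.25 on M9 to M12, and 6.02, 6.43, 6.23 and 6.41 on M13 to M16. M10 lay above M7, and the other septic wildtype arrays were at or below 6.80. With all arrays the difference from septic wildtype was 0.13 (SE 0.41) with a limma adjusted p of 0.876, and its sign turned to -0.11 without M7, -0.14 without M9, -0.08 without M12 and -0.18 after a further quantile normalization. Without M10 it was 0.62, and from untreated wildtype, where the groups did not overlap, 0.72 (SE 0.41). Ube2c, the ubiquitin-conjugating enzyme of the complex, was at 7.07, 6.78, 7.59 and 6.83 on M5 to M8, 6.28, 7.85, 6.34 and 6.61 on M9 to M12, and 6.28, 6.71, 6.52 and 6.28 on M13 to M16. Apart from M10 the septic TLR-deficient arrays were the 4 highest. The difference from septic wildtype was 0.30 (SE 0.32) with an adjusted p of 0.639, 0.66 without M10, 0.13 to 0.16 without M7, M9 or M11, and -0.02 after a further quantile normalization. From untreated wildtype it was 0.62 (SE 0.32).

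The 3 cytokinesis genes had a median difference of 0.89 from septic wildtype, 0.76 without M10 and 0.64 without M7. Ect2, which activates the small GTPase RhoA at the division plane, was at 7.31, 7.30, 7.82 and 7.39 on M5 to M8, 6.33, 6.11, 6.37 and 6.94 on M9 to M12, and 6.52, 6.86, 6.84 and 6.31 on M13 to M16. The septic TLR-deficient arrays lay close together and above all others. The means were 7.45 ± 0.24, 6.44 ± 0.36 and 6.64 ± 0.27 (SD, n = 4), with differences of 1.01 (SE 0.22), 2.02-fold, and 0.82 (SE 0.22). Racgap1, the other centralspindlin subunit, was at 7.25, 7.42, 8.46 and 7.62 on M5 to M8, 7.21, 5.74, 7.35 and 6.87 on M9 to M12, and 7.04, 7.58, 7.34 and 6.83 on M13 to M16. M10 was lowest by more than a log2 unit and M7 highest, and the remaining arrays of the 3 groups overlapped. The difference of 0.89 (SE 0.35) from septic wildtype was 0.54 without M10. Anln, anillin of the contractile ring, differed by 0.65 (SE 0.27) from septic and 0.82 (SE 0.27) from untreated wildtype, without overlap in the second.

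Between septic and untreated wildtype the mitosis genes showed no direction that held across settings. Of the 34, 16 had a higher and 18 a lower mean in septic wildtype, while 55.1% of all genes were higher. The number higher was 23 after a further quantile normalization (52.6% of all genes), 2 with array weights (55.6%), and 3 on replicates 1 to 3 without M10 (56.3%). The median difference was -0.03 against 0.07 for all genes. After a further quantile normalization the median of the members was 0.22. Among the 9969 genes with a mean above percentile 50 the background ran the other way. There 2036 genes were higher, with a median of -0.31, and 14 of 30 members were higher. No member and 0% of all genes had a limma adjusted p below 0.05, with a lowest value of 0.439. At an unadjusted p below 0.05 there were 0 members in either direction, against 2.89% of all genes higher and 5.92% lower. Single differences ran from -0.41 (SE 0.25) for Bub1b to 0.59 (SE 0.41) for Cdc20, and on M10 Bub1b was lowest and Cdc20 highest of the 12 arrays. Without M10, 7 members were higher (55.3% of all genes) and 27 lower, with a median of -0.08. By role, the 3 checkpoint genes had lower means (median -0.30) and the 7 entry genes higher ones (median 0.17). Without M10 the checkpoint genes stayed lower in 3 of 3 (median -0.19), whereas 5 of the 7 entry genes were then lower (median -0.05).

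Within the septic wildtype group the arrays were uneven. M9 lay below the own means of 33 of 34 members, with a median of -0.52, and Kif23 was the exception. M11 and M12 had medians of -0.21 and -0.15, and M10 one of 0.13 with members from -1.49 (Racgap1) to 1.62 (Cdc20). The untreated arrays ranged from -0.43 on M13 to 0.02 on M14, so the spread inside each wildtype group was larger than the difference between their means. The septic TLR-deficient arrays had medians of 0.27, 0.10, 0.97 and 0.38.

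The arrays were also set against the blocks of likeness described above, M5 to M7 with M16, M8 to M11, and M12 to M15. These blocks were drawn up with results of these data known and are given as a description without a test. No member lay higher on all arrays of the first block than on all of the second, against 5.22% of all genes, and none lay lower, against 4.98%. Nusap1 was the single member above the third block on all arrays of the first (4.79% of all genes), with none below (7.1%). None separated the second block from the third, above (4.38%) or below (5.09%). With shares this small, counts of 0 or 1 in 34 lie near the background. M16, labelled untreated, lay below each of M5, M6 and M7 in 24 of 34 members, against 28.5% of all genes. M8, labelled septic TLR-deficient, lay above M9, M10 and M11 in 20 of 34, against 22.9% of all genes. With M10 left out, M8 lay above M9 and M11 in 32, against 32.2%, the exceptions being Cdk1 and Cdc20. M12, labelled septic wildtype, lay above M13, M14 and M15 in 10 members, against 22%.

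The members varied together over the arrays. Among their 561 pairs the median r was 0.693 over 12 arrays, from -0.38 between Kif2c and Cdc20 to 0.986 between Kif11 and Prc1, and 15 pairs were below 0. Without M10 the median was 0.779 over 11 arrays and no pair was below 0, the lowest being 0.222 between Bub1b and Anln. Ccna2 (r = 0.972), Spag5 (0.92) and Ncapg (0.919) followed the median of the other members most closely, and Bub1b (0.307), Kif2c (0.376) and Racgap1 (0.475) least, where without M10 the last 3 were at 0.587, 0.804 and 0.835. The arrays share the group differences and the normalization, so these values describe likeness only.

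Outside the list, the genes whose values were most like the members' median over the 12 arrays were Clspn (r = 0.973), a mediator of the replication checkpoint, and Dlgap5 (0.962), a spindle microtubule protein. They were followed by Ckap2 (0.942), Sgo2a (0.934), the histone gene H2ac4 (0.934), Hmmr (0.932), Kif22 (0.932), the G1 cyclin Ccne1 (0.931), Esco2 (0.929) and Ddias (0.924). Clspn was at 5.87, 5.81, 6.61 and 5.98 on M5 to M8, 5.21, 5.76, 5.20 and 5.57 on M9 to M12, and 5.23, 5.78, 5.54 and 5.26 on M13 to M16. M7 was highest, and M9, M11 and M13 were lowest. Of the 10, Ckap2, Dlgap5, Hmmr and Kif22 belong to the spindle, and Sgo2a and Esco2 act on sister chromatid cohesion.

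Other genes of the same processes, not in the list of 35, were mostly higher in mean on the septic TLR-deficient arrays as well. The genes named are among those with the largest differences in each list. Among 31 other kinetochore and centromere genes 29 had a higher mean than in septic wildtype (median 0.47), led by Cenpq (1.05, but 0.66 without M10), Zwint (0.98) and Cenpk (0.96). Among 19 other spindle genes 18 did (median 0.47), with Nek2 at 0.98, Dlgap5 at 0.85 and Tacc3 at 0.85. The 7 other condensin genes (median 0.52) included Smc2 at 0.95, the 7 other cytokinesis genes (median 0.60) Shcbp1 at 0.83, the 11 other checkpoint and anaphase genes (median 0.47) Esco2 at 0.90, and every gene of these 3 lists was higher in mean with the deposited scaling. Of 20 other mitotic regulators 18 were higher (median 0.56), led by Lin54 (1.18, but 0.62 without M10) and Mybl2 (0.86). After a further quantile normalization the counts higher were 24 of 31 kinetochore, 17 of 19 spindle, 7 of 7 condensin, 7 of 7 cytokinesis, 9 of 11 checkpoint and 15 of 20 regulator genes. None of these genes had a limma adjusted p below 0.05. Beside the counts of these lists, 43.9% of all genes were higher than in septic wildtype. Of the 9969 genes with a mean above percentile 50, 7372 were, and after a further quantile normalization 9446 of all 19938.

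The subunits of the anaphase-promoting complex itself were low on M10, with a median of -1.19 from their own means. Of 16, 13 had a higher mean than in septic wildtype (median 0.39), but without M10 the count was 8 of 16 with a median of 0.01. From untreated wildtype the median was 0.04. Cdc27, its largest difference, was at 0.89, and at 0.41 without M10. Genes of DNA replication were higher in mean in 41 of 41 (median 0.56), in 40 without M10 (0.48), in 34 after a further quantile normalization (0.35), and in 38 of 41 against untreated wildtype (0.31). Chek1, the kinase that guards replication forks, differed most, by 1.59 (SE 0.38), and by 0.67 from untreated wildtype. The G1 cyclins, kinases and inhibitors were higher in 18 of 21 (median 0.38), in 15 of 21 without M10 (0.13) and in 14 after a further quantile normalization (0.14), with a median of 0.10 from untreated wildtype. No gene of these lists had a limma adjusted p below 0.05. Beside their counts, 43.9% of all genes were higher than in septic wildtype, and 51.9% higher than in untreated wildtype. Of the 9969 genes with a mean above percentile 50, 7372 were higher than in septic wildtype, and without M10 9576 of all 19938 were.

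Markers of erythroid precursors, cells that divide in the red pulp, were higher on the same label. All 19 measured markers had a higher mean on the septic TLR-deficient arrays than in septic wildtype (median 0.60, 0.87 without M10, and 0.33 with 18 higher after a further quantile normalization) and than in untreated wildtype (median 1.02). Of all genes 43.9% and 51.9% were higher in these 2 comparisons, and 7372 and 3490 of the 9969 genes with a mean above percentile 50. The log2 of the markers' summed linear values ran from 12.5 to 13.3 on M5 to M8, from 11.1 to 12.8 on M9 to M12 and from 11.2 to 12.2 on M13 to M16. By array the median shift of the markers was 0.89 on M7 and -1.16 on M9, the arrays that were highest and lowest in the mitosis genes. It was 0.46 on M12, 0.60 on M10 and -1.10 on M16, where the mitosis genes were at -0.15, 0.13 and -0.28. Rhag, a protein of the red cell membrane, had the largest difference from septic wildtype, 1.62 (SE 0.68), followed by Kel (1.27) and Tspo2 (1.10). Between septic and untreated wildtype the markers and the mitosis genes differed: 17 of 19 markers had a higher mean (median 0.34), and 16 of 34 mitosis genes (median -0.03). Of all genes 55.1% were higher there. Without M10, 15 of 19 markers (median 0.12) and 7 of 34 mitosis genes (median -0.08) were higher, against 55.3% of all genes. None of the 19 had a limma adjusted p below 0.05. The part of erythroid precursors in the values of the mitosis genes was not tested.

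Granulocyte precursor markers were high on M7 as well, with a median shift of 1.60 there over 11 genes and of -0.22 to 0.20 on M5, M6 and M8. Their summed values overlapped between all labels (9.30 to 11.2, 9.16 to 10.2 and 9.01 to 10.3). B cell markers ran otherwise: they were low on M5, M6, M7, M10 and M16 (median shifts of -0.47 to -1.32) and above their means on the other 7 arrays (0.35 to 0.72). The summed levels of germinal centre B cell markers spanned 8.79 to 9.09, 8.58 to 8.82 and 8.70 to 9.28, and those of haematopoietic stem and progenitor markers 9.58 to 10.01, 9.49 to 9.97 and 9.92 to 10.1. Both overlapped between labels. Markers of pancreatic acinar cells were high on M12 (11.3) and M14 (12.2) and at 7.15 to 9.26 on the other arrays. What these cell types contribute to the mitosis genes was not tested.

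**Figure D5:**
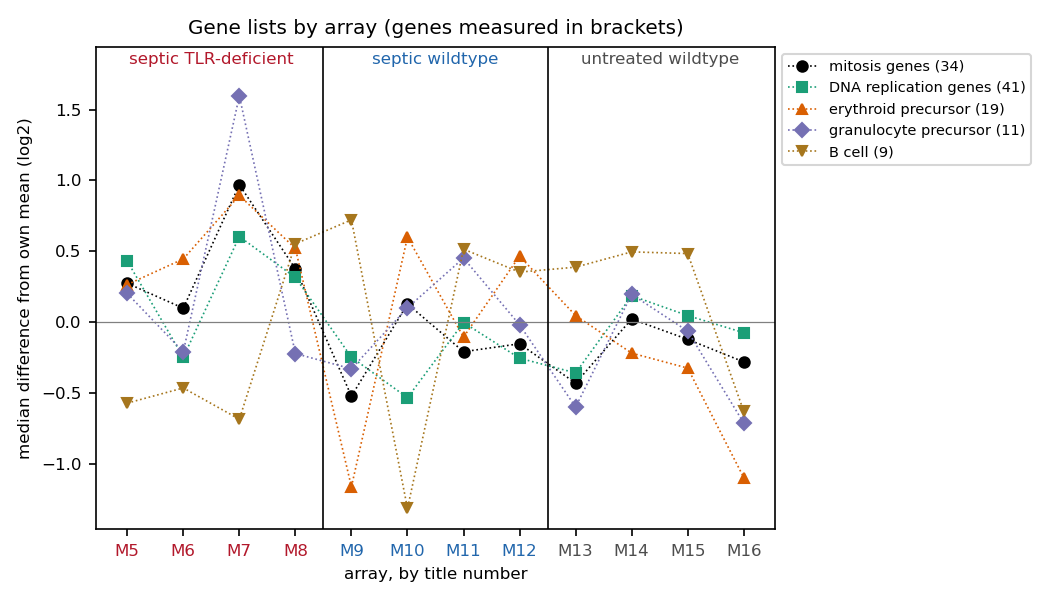
Median over a list of the log2 value minus the gene's own 12-array mean, for 5 gene lists on the 12 arrays ordered by title number; dotted lines join the points of a list. The mitosis genes (black) and the erythroid precursor markers (orange) are both highest on M7 (0.97 and 0.89) and lowest on M9 (-0.52 and -1.16), while B cell markers (brown) are low on M5 to M7, M10 and M16.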

How the data were processed

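Per the labels, spleen RNA was copied, amplified and biotin-labelled with Affymetrix kits. The authors deposited 1 log2 value for each probe set and array, and the submitters' processing notes name RMA and Affymetrix Expression Console (versions not given in the sources used here). RMA usually corrects background, equalises arrays and summarises probes, which can hide a difference shared by most genes. Of 35557 probe sets, 21789 carry 1 symbol, 1621 several and 12147 none. Gene symbols come from the platform annotation.

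The members and lists were chosen with earlier results of these data known. All 35 members are named, and nothing says whether the biological replicates were handled separately after dissection, so p-values measure the spread between these arrays. Values by array are printed for the members with the largest absolute differences from septic wildtype in each role and for Mki67, Top2a and Cdk1. The 10 other genes most like the members' median are named by size of r. Up to 3 genes per list are named, not in every list the largest.

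Group means over all 12 arrays were compared by limma's moderated test (version 3.58.1, run under R 4.3.3), two-sided, with Benjamini-Hochberg adjustment over 19938 genes. The procedure was tested on simulated data. Alternatives were a further quantile normalization, centring, filters at percentiles 25 and 50, the mean of probe sets, array weights, trended with robust variances, a replicate block, a fit on 2 groups at a time, a threshold of 0.01 and leaving out each array. Fits on replicates 1 to 3, with and without M10, were chosen after seeing the data. Figures used matplotlib 3.10.9 in Python 3.11.15.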

Additional observations from a re-analysis of the deposited data

Results flagged for a closer look

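Birc5, survivin, had 1 array far from the others of its label: on M14, untreated wildtype replicate 2, it was at 6.08, against 5.76 to 5.81 on M13, M15 and M16. The gap was 0.836 of the range of the group, above Dixon's critical value at the 95% level for 4 arrays. Of 57 groups examined in this way this was 1, and chance alone picks out about 1 in 20.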

How the results depend on the processing

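The median differences of the members from septic and from untreated wildtype kept their direction under every alternative run. With single arrays left out they were 0.49 to 0.74 and 0.46 to 0.79. Over all alternatives run they were 0.47 to 0.87 and 0.46 to 0.79. The 0.47 from septic wildtype came after a further quantile normalization. The median difference between septic and untreated wildtype ran from -0.10 to 0.08 with single arrays left out. Over all alternatives run it was -0.19 to 0.22, and it has no settled direction. No gene passed an adjusted p of 0.05 or 0.01 with all arrays or with any 1 array left out, so stability of calls cannot be read from those fits. Array weights called 1 gene between septic and untreated wildtype. Fits on replicates 1 to 3, chosen after seeing the data, called 141 genes against septic wildtype, 33 against untreated wildtype and 9 between the wildtype groups. With M10 left out as well they called 1002, 675 and 19, of which 9, 3 and 0 were mitosis genes. The cause was not tested. A further quantile normalization turned the difference from septic wildtype to -0.024 for Ube2c and -0.18 for Cdc20, and that between septic and untreated wildtype to 0.25 for Aurkb, 0.21 for Prc1, 0.21 for Ncapg, 0.023 for Ect2 and 0.18 for Top2a. The mean of probe sets turned Top2a to 0.16, where its dim second probe set was high on M10. Between the wildtype groups array weights turned Ccna2 to -0.32, Cdk1 to -0.27, Ccnb2 to -0.066, Birc5 to -0.13, Kif11 to -0.13, Mki67 to -0.39 and Ube2c to -0.16. Replicates 1 to 3 turned Ccna2 to -0.0098, Kif11 to -0.089 and Mki67 to -0.24, and without M10 as well Ccna2 was at -0.18, Cdk1 at -0.13, Birc5 at -0.17, Kif11 at -0.19, Mki67 at -0.57 and Ube2c at -0.20. With single arrays left out the same difference ran from -0.091 to 0.23 for Ccna2, -0.10 to 0.40 for Cdk1, -0.069 to 0.13 for Kif11, -0.15 to 0.24 for Mki67, -0.17 to 0.076 for Ncapg, -0.16 to 0.093 for Prc1 and -0.041 to 0.48 for Ube2c, and that of Cdc20 from septic wildtype from -0.14 to 0.62.

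Replicate numbers recur in each label. Deviations of the 12 same-numbered pairs correlated at -0.54 to 0.14, with a median of -0.11. Those of 36 other pairs correlated at -0.40 to 0.38, with a median of 0.044. These ranges overlap and the pairs share arrays, so they cannot decide whether a replicate number has a meaning. The last-numbered replicate of each label was the array described above as resembling another label. With the replicate block the median difference from septic wildtype was 0.66, 20 members had an unadjusted p below 0.05 (1006 of all 19938 genes in either direction) and no member was called (lowest limma adjusted p = 0.626).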
